A study of Rattus norvegicus with 6 samples.

Results

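The steroid enzyme gene Hsd3b5 and 9 genes of the growth hormone axis (Ghr, Stat5b, Igf1, Igfals, Socs2, Cish, Mup3, Mup20 and Bcl6) were followed in liver RNA from 3 libraries of a high-fat diet group (HFD group) and 3 libraries of a group given the same diet and HTG (HTG group). These 10 genes were found by their symbols in a table of 32930 gene rows, each symbol on a single row, and all 10 were among the 18455 genes that passed edgeR's default expression filter. Hsd3b5 was chosen by its measured difference between the HTG and HFD groups in these libraries, so its values are described without a test. The other 9 genes were listed for their roles in the axis, with earlier results of these data known. The question was whether the higher level of Hsd3b5 in the HTG group was accompanied by differences in the other genes of the axis.

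Growth hormone reaches the hepatocyte from the blood and binds its receptor, which activates the kinase JAK2 and, through it, the transcription factor STAT5B. STAT5B then raises the transcription of Igf1, the main circulating growth factor made by the liver, and of feedback inhibitors such as Socs2 and Cish. In rodents, growth hormone is released in pulses in males and more evenly in females, and the pulsed pattern maintains a male-biased set of liver genes. Hsd3b5, a reductase of 3-ketosteroids, and the major urinary proteins (Mup genes) belong to the male-biased set of the mouse liver.

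HTG stands for Huazhuo Tiaozhi granule, a herbal medicine tested against dyslipidaemia. The HFD group received the vehicle, 0.5% CMC-Na (sodium carboxymethyl cellulose), and both groups are described with an intervention of 12 weeks. The sample labels describe the liver as nonalcoholic fatty liver and give the treatment of the HTG libraries as HCG, whereas their titles and the design text give HTG. The labels name rats and the study's methods name C57BL/6 J mice for this sequencing, while the rows of the table are identified as Ensembl genes of the mouse and were taken as such. No age, sex or strain is given in the labels. The design text speaks of 6 animals in 2 groups, but no label ties a library to an animal, so p-values measure the spread between these libraries.

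The deposited estimated counts summed to between 50648778 (HTG library 3) and 90563477 (HTG library 2) per library, and about 4 counts stood for a sequenced fragment. Across genes, log2 CPM of any pair of libraries correlated at 0.951 to 0.982. CPM below are counts scaled by edgeR to the normalised size of a library, and FPKM are the authors' values per transcript length. The 7 hepatocyte markers summed to between 34762 and 42382 FPKM in the HFD libraries and between 28509 and 33033 FPKM in the HTG libraries, and 5 of the 7 had lower CPM in every HTG library than in any HFD library, while 1 was higher in every HTG library. Of 5 pericentral markers, 4 were lower in this way. Of all genes tested, 15.5% were separate and lower and 16.5% separate and higher. The 7 Kupffer cell markers summed to 232 to 495 FPKM in the HFD group and 160 to 307 FPKM in the HTG group. The summed ranges of periportal, sinusoidal endothelial, stellate, cholangiocyte, lymphocyte, red cell and exocrine pancreas markers overlapped, and the pancreatic Pnlip was at 0 in every library. Their part in the results below was not tested, and in bulk tissue fewer cells of a type and less RNA per cell cannot be told apart. Y-linked Ddx3y, Uty, Kdm5d and Eif2s3y were at 8.97 CPM or above in all 6 libraries, and Xist was at 1.20 CPM or below. Of these 5 genes, Ddx3y, Uty and Kdm5d were separate and higher in the HTG group, and 2 overlapped. The log2 fold changes of these 3 were 0.33, 0.56 and 0.63. None of the 5 had an adjusted p under 0.05 in edgeR's quasi-likelihood test, and the cause was not tested.

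Hsd3b5 (ENSMUSG00000038092, chromosome 3, 98525950 to 98537568, minus strand, in coordinates as the table lists them, without a named build) had 412, 201 and 81 counts in HFD libraries 1, 2 and 3. It had 2456, 6890 and 1004 counts in HTG libraries 1, 2 and 3. Scaled for library size, these were 6.05, 3.01 and 1.13 CPM in the HFD group and 31.5, 70.5 and 21.4 CPM in the HTG group. Every HTG library was above every HFD library, and the lowest HTG value was 3.54 times the highest HFD value. The group means were 3.4 ± 2.48 CPM (SD, n = 3) and 41.1 ± 25.9 CPM (SD, n = 3), a ratio of 12.1, and the fitted log2 fold change was 3.60. Per transcript length, the authors' values were 3.91, 1.76 and 0.72 FPKM in the HFD libraries and 19.0, 46.0 and 12.0 FPKM in the HTG libraries. The spread within the groups was wide, with a coefficient of variation of 73.1% in the HFD group and 62.9% in the HTG group. The size of the difference moved with single libraries, from a log2 fold change of 2.96 without HTG library 2 to 4.31 without HFD library 1.

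Other genes could share reads with Hsd3b5. Zfp697, on the opposite strand, spans all 11619 bases of the gene, and it held between 33 and 126 counts in the HFD libraries and between 128 and 261 counts in the HTG libraries. The study's methods describe strand-marked libraries, but use of the strand in counting is not given in the sources used here. The Hsd3b genes of chromosome 3 are related paralogs. Their sequences were not compared here, so whether counts were split between them is uncertain. Hsd3b5 took 2.53%, 3.41% and 0.409% of the counts of the 7 Hsd3b rows of that chromosome in HFD libraries 1, 2 and 3. It took 13.2%, 19.6% and 10.6% in HTG libraries 1, 2 and 3. Without Hsd3b5 these rows summed to 233, 85.4 and 275 CPM in the HFD group and 208, 289 and 181 CPM in the HTG group, so the groups overlapped.

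Among the Hsd3b rows other than Hsd3b5, 3 of 7 passed the expression filter. Hsd3b2 had 71.5, 21.7 and 42.4 CPM in the HFD libraries and 86.8, 153 and 70.8 CPM in the HTG libraries. Only the lowest HTG library fell below the highest HFD library. Its log2 fold change was 1.19 (SE 0.44, adjusted p = 0.145, edgeR's quasi-likelihood test), and DESeq2 gave an adjusted p of 0.0364. Hsd3b3 ranged from 63.6 to 232 CPM in the HFD group and from 110 to 136 CPM in the HTG group. Hsd3b7, an enzyme of bile acid synthesis, ranged from 242 to 259 CPM and from 253 to 386 CPM. The adjusted p-values of Hsd3b3 and Hsd3b7 were 0.662 and 0.439 in the same test. The rows of Hsd3b1, Hsd3b4, Hsd3b6 and Hsd3b8 were at or near 0 and were not tested.

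**Figure D1:**
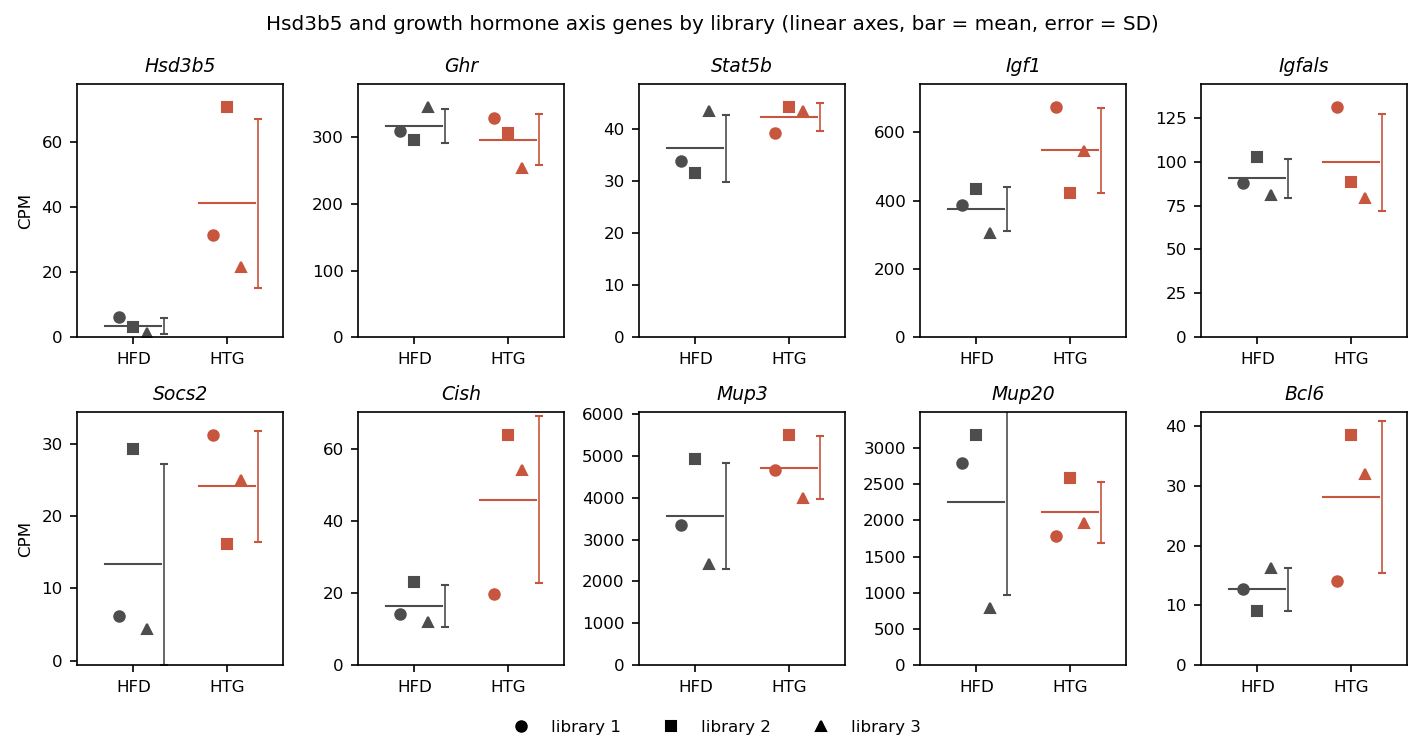
CPM of the 10 genes in each library (y axes linear, a scale per gene; points, libraries 1 to 3 of each group; horizontal bar, mean; error bar, SD, n = 3). The groups are separate for Hsd3b5, between 1.13 and 6.05 CPM against 21.4 to 70.5 CPM, and overlap for the other 9 genes.

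None of the other 9 genes was separate between the groups. Over all genes tested, 16.5% were separate and higher in the HTG group and 15.5% separate and lower. By edgeR's quasi-likelihood test over all 18455 genes, 0 of the 9 had an adjusted p under 0.05 (Benjamini-Hochberg), where 0.0108% of all genes did. At an unadjusted p under 0.05, Cish and Bcl6 were higher and none was lower, against 12.3% of all genes higher and 12.4% lower. DESeq2 gave 2 of the 9 an adjusted p under 0.05, again Cish and Bcl6, and limma on the FPKM values gave 0. At that threshold DESeq2 called 2089 genes in all (10.5% of the 19965 given an adjusted p) and limma called 878 (8.03% of 10930). The fitted value was above 0 for 7 of the 9 and below 0 for 2, and their median log2 fold change was 0.41, against 0.03 for all genes tested. Without HFD library 2, that median was 0.66 and 4 of the 9 had an unadjusted p under 0.05, Igf1 and Socs2 in addition. In that fit 3929 of all genes passed this threshold, against 4563 in the reported fit. With any other single library left out, 2 of the 9 passed it. These were Cish and Bcl6, except without HTG library 2, where they were Cish and Igf1. With 3 libraries a group, the smallest p that an exact two-sided permutation test can give is 0.1.

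The groups overlapped for the receptor and its transcription factor. Ghr, the growth hormone receptor (ENSMUSG00000055737, chromosome 15, 3347242 to 3612712), had 310, 296 and 345 CPM in HFD libraries 1, 2 and 3 and 329, 307 and 254 CPM in HTG libraries 1, 2 and 3. The lowest and the highest of the 6 values were HTG library 3 and HFD library 3. Between the groups, the log2 fold change was -0.10 (95% interval -0.54 to 0.35, adjusted p = 0.795, edgeR's quasi-likelihood test). Stat5b, the transcription factor below the receptor (ENSMUSG00000020919, chromosome 11, 100671557 to 100741550), had 33.9, 31.5 and 43.6 CPM in the HFD group and 39.3, 44.2 and 43.6 CPM in the HTG group. HFD library 3 lay among the HTG libraries. The log2 fold change of Stat5b was 0.22 (95% interval -0.18 to 0.63, adjusted p = 0.472, same test).

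The groups also overlapped for the circulating products of the axis. Igf1, the growth factor that mediates much of the action of growth hormone (ENSMUSG00000020053, chromosome 10, 87694127 to 87772904), had 386, 434 and 305 CPM in the HFD group and 673, 422 and 546 CPM in the HTG group. HTG library 2 was below HFD library 2, and the other two HTG libraries were above every HFD library. The group means were 375 ± 65.1 and 547 ± 125 CPM (SD, n = 3). The log2 fold change was 0.55 (SE 0.25, unadjusted p = 0.0566, adjusted p = 0.217, edgeR's quasi-likelihood test), with an unadjusted p of 0.214 without HTG library 1 and of 0.0211 without HTG library 2. Igfals, the acid labile subunit that holds IGF-1 in its plasma complex (ENSMUSG00000046070, chromosome 17, 25084971 to 25100984), had 87.7, 103 and 81.2 CPM in the HFD group. It had 131, 88.3 and 79.6 CPM in the HTG group, so that HTG libraries held both its highest and its lowest value. Its log2 fold change was 0.14 (95% interval -0.39 to 0.66, adjusted p = 0.751, same test), and its direction turned without HTG library 1, at -0.15.

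The feedback inhibitors Cish and Socs2 varied widely between libraries. Cish, which encodes a SOCS family protein induced by STAT5 (ENSMUSG00000032578, chromosome 9, 107173225 to 107179983), had 14.0, 23.1 and 11.9 CPM in the HFD group and 19.6, 63.7 and 54.1 CPM in the HTG group. HTG libraries 2 and 3 were above every HFD library, and HTG library 1 lay within the HFD range. The means were 16.3 ± 5.96 and 45.8 ± 23.2 CPM (SD, n = 3), a ratio of 2.8. Fitted on the log2 scale, the difference was 1.49 (SE 0.43, unadjusted p = 0.00815, adjusted p = 0.091, edgeR's quasi-likelihood test). The adjusted p was 0.0057 in DESeq2 and 0.0421 without HTG library 1, and it was over 0.05 under the other 12 alternatives.

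Socs2, the feedback inhibitor whose loss causes overgrowth in mice (ENSMUSG00000020027, chromosome 10, 95221224 to 95253042), had 6.24, 29.3 and 4.41 CPM in the HFD group. It had 31.3, 16.1 and 25.0 CPM in the HTG group. HFD library 2 stood apart from the other HFD libraries and was exceeded only by HTG library 1. Its fitted difference on the log2 scale was 0.86 (SE 0.65, adjusted p = 0.444, edgeR's quasi-likelihood test). Without HFD library 2 it was 2.18, with an unadjusted p of 0.000228 and an adjusted p of 0.119 in that test.

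Bcl6, a transcriptional repressor that is restrained by growth hormone and STAT5 and binds many of the same sites (ENSMUSG00000022508, chromosome 16, 23783802 to 23807602), had 12.8, 9.04 and 16.2 CPM in the HFD group. It had 14.0, 38.5 and 32.0 CPM in the HTG group, so HTG library 1 again lay within the HFD range. The means were 12.7 ± 3.59 and 28.2 ± 12.7 CPM (SD, n = 3), a ratio of 2.22. On the log2 scale the fitted difference was 1.15 (SE 0.37, unadjusted p = 0.0139, adjusted p = 0.109, edgeR's quasi-likelihood test). The adjusted p was 0.028 in DESeq2 and 0.0463 without HTG library 1, and the unadjusted p was 0.0599 without HTG library 2. An lncRNA gene on the same strand shares 203 bases with Bcl6 and had at most 52 counts in any library, in HTG library 2.

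**Figure D2:**
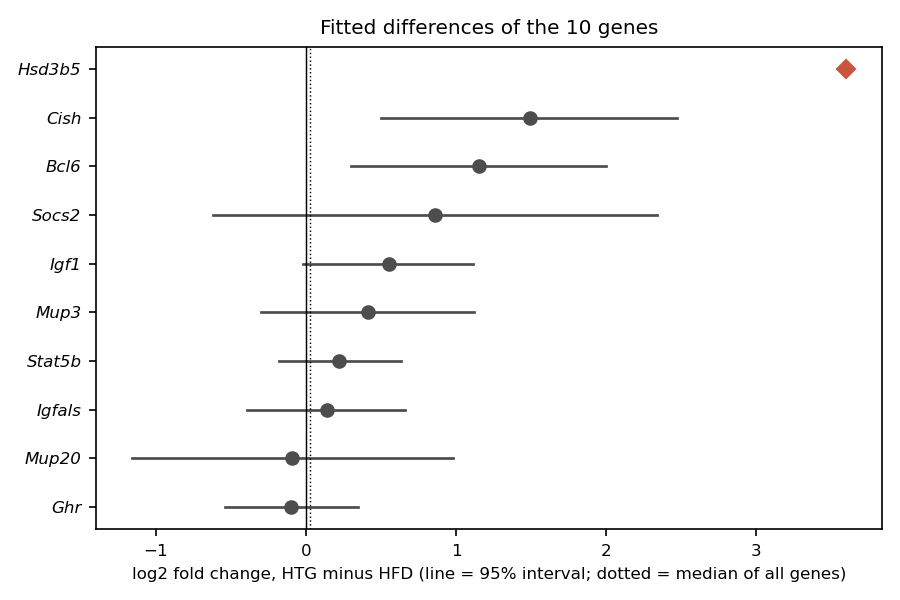
Fitted log2 fold change (x axis, HTG minus HFD) of each gene. The line is a 95% interval derived from the F statistic of edgeR's test, and the median of all genes tested (0.03) is dotted. Hsd3b5 (diamond, 3.60) is drawn without an interval, and the intervals of Cish (0.50 to 2.47) and Bcl6 (0.30 to 2.00) lie above 0.

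Mup3 and Mup20, secreted major urinary proteins that bind pheromones, were the most abundant of the 10 genes. Mup3 (ENSMUSG00000066154, chromosome 4, 62001713 to 62005579) had 3349, 4925 and 2415 CPM in the HFD group and 4663, 5497 and 4006 CPM in the HTG group. The fitted log2 fold change was 0.41 (SE 0.31, adjusted p = 0.452, edgeR's quasi-likelihood test). Mup20, also called darcin (ENSMUSG00000078672, chromosome 4, 61968471 to 61972395), had 2793, 3178 and 785 CPM in the HFD group and 1784, 2586 and 1962 CPM in the HTG group. HFD library 3 was the lowest library for both genes, by a wide margin for Mup20. The log2 fold change of Mup20 was -0.09 (95% interval -1.16 to 0.98, adjusted p = 0.926, same test), and its direction turned under 4 of the 14 alternatives, among them the FPKM values and the fit without HFD library 2.

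Many Mup genes are near-identical copies in a cluster, and the sequences of the rows were not compared here. Counts per row are therefore uncertain, and the summed level was examined as well. The 20 Mup rows summed to 13931, 14890 and 6422 CPM in the HFD group and to 13787, 18872 and 12708 CPM in the HTG group. HFD library 3 was thus the lowest, and the other libraries of both groups overlapped. HFD library 3 was also the lowest of its group in 16 of the 20 rows. By edgeR's quasi-likelihood test, 4 of the 20 rows had an unadjusted p under 0.05, all higher (Mup10, Mup2, Mup15 and Mup8), where 12.3% of all genes were higher at that threshold. None of the rows had an adjusted p under 0.05. The median log2 fold change of the rows was 0.47, and it was 0.27 without HTG library 2 and 0.71 without HFD library 2. Mup10 was the only Mup row whose groups were separate, where 16.5% of all genes were separate and higher and 15.5% separate and lower. It had 427, 374 and 181 CPM in the HFD group and 1418, 633 and 514 CPM in the HTG group. Between the groups, the log2 fold change was 1.38 (SE 0.45, adjusted p = 0.113, same test). Mup2 and Mup15 had log2 fold changes of 0.75 and 2.06 with adjusted p-values of 0.136 and 0.158 in that test. Mup15 had 1747 CPM in HTG library 2 against 289 and 416 CPM in the other HTG libraries. Without that library the fitted difference of Mup15 was 0.85 on the log2 scale. Mup12, the third most abundant Mup row by FPKM, ranged from 797 to 2485 CPM in the HFD group and from 1221 to 3094 CPM in the HTG group. DESeq2 gave 2 rows, Mup10 and Mup8, an adjusted p under 0.05, against 10.5% of all genes it gave an adjusted p. The 21 Mup pseudogene rows summed to 165 to 463 CPM in the HFD group and 214 to 494 CPM in the HTG group.

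Per transcript length, the order of the levels in the HFD group was Mup3 (mean 3187 FPKM), Mup20 (2318), Igf1 (36.4), Ghr (33.9), Igfals (27.6), Stat5b (6.36), Cish (2.42), Hsd3b5 (2.13), Bcl6 (1.85) and Socs2 (1.29). In that group, the ranges of the libraries overlapped between Mup3 and Mup20, between Igf1 and Ghr, and between each neighbour from Cish down to Socs2. In the HTG group, the order was Mup3 (mean 4180 FPKM), Mup20 (2150), Igf1 (51.5), Ghr (30.9), Igfals (29.6), Hsd3b5 (25.7), Stat5b (7.17), Cish (6.73), Bcl6 (3.97) and Socs2 (2.35). Hsd3b5 thus stood in place 8 of 10 in the HFD group and in place 6 in the HTG group, where its range of 12.0 to 46.0 FPKM overlapped that of Igfals. Among all rows of the table, its mean FPKM ranked 8127 in the HFD group and 1313 in the HTG group.

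The libraries of a group were not ordered alike by these genes. Within the HFD group, 6 genes (Igf1, Igfals, Socs2, Cish, Mup3 and Mup20) were highest in library 2, intermediate in library 1 and lowest in library 3. Ghr, Stat5b and Bcl6 had the reverse order, and Hsd3b5 alone was highest in library 1. Within the HTG group, Stat5b, Cish, Mup20 and Bcl6 were highest in library 2 and lowest in library 1, while Igf1 and Socs2 had the reverse order. Hsd3b5 and Mup3 were highest in HTG library 2 and lowest in HTG library 3. These orders rest on 3 libraries a group and are given as a description.

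Across the 6 libraries, Pearson's r of log2(CPM + 1) with Hsd3b5 was 0.765 for Cish, 0.721 for Mup3, 0.686 for Bcl6 and 0.650 for Igf1. It was lower for the other members, down to -0.306 for Ghr. Among the 14369 tested genes that averaged 50 or more counts, those most like Hsd3b5 included Clk3 (0.998), Ptms (0.995), Brf1 (0.994) and Scnn1a (0.994). Since Hsd3b5 was separate between the groups, such values largely restate the groups. After the values were centred within each group, r was 0.724 for Mup20, 0.598 for Mup3 and 0.291 for Cish. It was 0.099 for Igfals, 0.086 for Bcl6, 0.082 for Ghr, -0.054 for Socs2, -0.101 for Igf1 and -0.430 for Stat5b. By this centred r, Mup20 ranked 1220 and Mup3 ranked 2043 among the 14369 genes. The 5 genes most like Hsd3b5 on the centred values were Tns4, Gimap1, Socs7 (each 0.996), Gm9725 and Zdhhc4 (each 0.995). The libraries are the shared points of all these values, and with 6 of them no test was made.

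The wider growth hormone list held 28 further genes of the pathway, its inhibitors and the liver transcription factors that act with it, and all 28 were tested. At an unadjusted p under 0.05 by edgeR's quasi-likelihood test, 4 were higher (Socs3, Foxa2, Foxa1 and Onecut1) and 2 were lower (Ptpn11 and Socs7), together 21.4% of the list, where 24.7% of all genes passed. None had an adjusted p under 0.05 in edgeR. DESeq2 gave 5 of the 28 and limma on FPKM gave 1 of the 24 it tested. Over all genes given an adjusted p by each, the shares were 10.5% and 8.03%. In 4 genes the HTG libraries were separate and higher, and in 2 they were separate and lower, against 16.5% and 15.5% of all genes. The median log2 fold change of the list was 0.09, and it was -0.03 without HTG library 1 and -0.02 on FPKM.

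The inhibitors and phosphatases in this list lay on both sides of 0. Socs3, a feedback inhibitor induced by several cytokines as well as by growth hormone, had 33.2, 31.3 and 12.4 CPM in the HFD group and 53.1, 117 and 248 CPM in the HTG group. The fitted log2 fold change was 2.44 (SE 0.58, adjusted p = 0.0629, edgeR's quasi-likelihood test), and the adjusted p was under 0.05 under 4 of the 14 alternatives, DESeq2 among them (3.18e-05). Ptpn11, the phosphatase SHP2, had 42.0, 59.8 and 58.3 CPM in the HFD group and 35.1, 22.6 and 27.9 CPM in the HTG group, with a log2 fold change of -0.90 (SE 0.22, adjusted p = 0.0659, same test). Socs7 had 14.0, 13.2 and 12.1 CPM in the HFD group and 8.10, 9.10 and 7.83 CPM in the HTG group, with a log2 fold change of -0.65 (SE 0.17, adjusted p = 0.078, same test). These 3 genes, named by their p-values, were separate between the groups. Socs4 was also separate and higher, with a log2 fold change of 0.36. Socs1, Socs5, Socs6, Ptpn1, Ptpn2 and Ptpn6 overlapped between the groups. Their log2 fold changes were 1.98 for Socs1, 0.33 for Ptpn2 and between -0.06 (Socs5) and 0.04 (Socs6) for the rest.

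Among the transcription factors, Foxa2 had 27.2, 24.0 and 23.5 CPM in the HFD group and 37.4, 68.9 and 34.4 CPM in the HTG group. Foxa1, its close relative, had 12.9, 15.4 and 10.2 CPM and 16.9, 24.1 and 22.5 CPM. Both pioneer factors were separate between the groups, with log2 fold changes of 0.91 and 0.72 and adjusted p-values of 0.0948 and 0.0963 in edgeR's quasi-likelihood test. Onecut1 (HNF6), whose level in the liver responds to growth hormone, had 2.66, 4.75 and 7.45 CPM in the HFD group and 14.0, 6.58 and 27.5 CPM in the HTG group, so the groups overlapped. Its log2 fold change was 1.69 (SE 0.54, adjusted p = 0.107, same test). Cux2, a female-biased repressor, ranged from 4.22 to 16.0 CPM in the HFD group and from 1.97 to 23.2 CPM in the HTG group.

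The kinase and the other receptors of the list overlapped between the groups. Jak2, the kinase bound to the receptor, ranged from 11.0 to 15.3 CPM in the HFD group and from 13.6 to 14.7 CPM in the HTG group, with a log2 fold change of 0.15 (adjusted p = 0.652, edgeR's quasi-likelihood test). Stat5a, the close homologue of Stat5b, had 8.28, 9.78 and 12.3 CPM and 16.7, 11.9 and 11.4 CPM, with a log2 fold change of 0.40 (adjusted p = 0.322, same test). Igfbp3, a plasma carrier of IGF-1, had a log2 fold change of 0.41, Igf1r of 0.38 and the prolactin receptor Prlr of -0.07, with adjusted p-values of 0.42, 0.48 and 0.887 in that test.

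**Figure D3:**
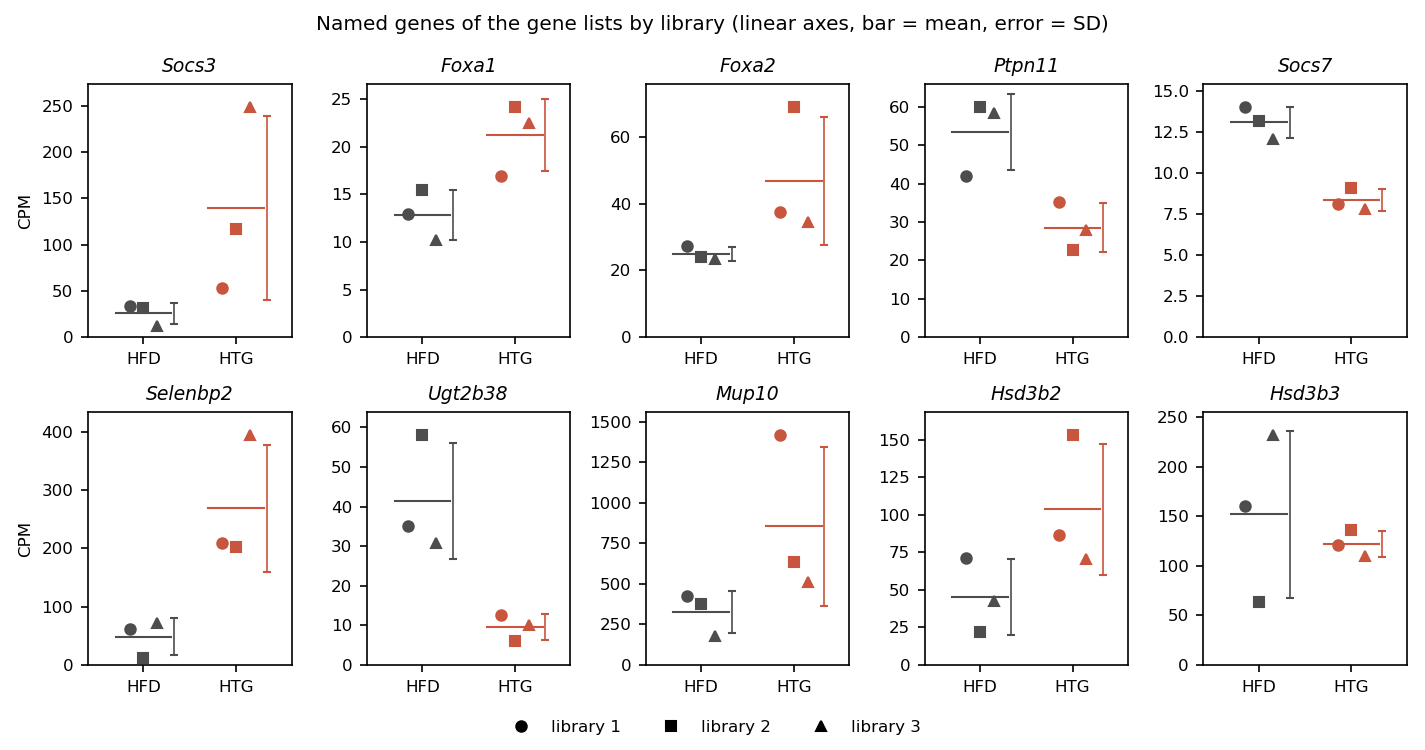
CPM of 10 named genes outside the 10 described first (y axes linear, a scale per gene; points, libraries 1 to 3 of each group; horizontal bar, mean; error bar, SD, n = 3). The first 8 genes are separate between the groups, as in Ugt2b38 (30.9 to 58.0 CPM in the HFD group, 6.06 to 12.6 CPM in the HTG group), while Hsd3b2 and Hsd3b3 overlap.

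The male-biased list, 18 liver genes that like Hsd3b5 are higher in male than in female mice, did not lie on one side. At an unadjusted p under 0.05 by edgeR's quasi-likelihood test, Selenbp2 was higher and Ugt2b38 and Ugt2b1 were lower, together 16.7% of the list against 24.7% of all genes. None had an adjusted p under 0.05 in that test, while DESeq2 and limma on FPKM each gave 2, Selenbp2 and Ugt2b38. Over all genes given an adjusted p by each, the shares were 10.5% and 8.03%. The fitted value was above 0 for 9 genes and below 0 for 9, and the median log2 fold change was 0.03, as for all genes tested, but -0.24 without HFD library 1 and -0.33 without HFD library 3. Selenbp2, a selenium-binding protein, had 62.1, 12.4 and 71.6 CPM in the HFD group and 209, 202 and 394 CPM in the HTG group, a log2 fold change of 2.46 (SE 0.60, adjusted p = 0.0654). Ugt2b38, a glucuronosyltransferase, had 35.1, 58.0 and 30.9 CPM in the HFD group and 12.6, 6.06 and 10.2 CPM in the HTG group, a log2 fold change of -2.10 (SE 0.33, adjusted p = 0.0538). The related Ugt2b1 had a log2 fold change of -0.59 (adjusted p = 0.17), all by edgeR's quasi-likelihood test.

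Other well-known male-biased genes overlapped between the groups. The steroid transporter Slco1a1 had 38.5, 85.6 and 23.3 CPM in the HFD group and 87.1, 123 and 77.5 CPM in the HTG group, and HFD library 2 alone reached the HTG range. Between the groups, the log2 fold change was 0.97 (SE 0.44, unadjusted p = 0.0563, adjusted p = 0.217, edgeR's quasi-likelihood test). Cyp2d9 ranged from 809 to 1303 CPM in the HFD group and from 638 to 868 CPM in the HTG group. Cyp7b1, an oxysterol hydroxylase, ranged from 112 to 162 CPM and from 77.3 to 153 CPM. The log2 fold changes of Cyp2d9 and Cyp7b1 were -0.47 and -0.37 (adjusted p = 0.295 and 0.448, same test). Elovl3, a fatty acid elongase, had 11.3, 75.4 and 13.8 CPM in the HFD group and 40.1, 13.1 and 5.10 CPM in the HTG group. The fitted log2 fold change was -0.78 (adjusted p = 0.612, same test) and became 0.64 without HFD library 2. HFD library 2 was the highest of its group in 11 of the 18 genes, and HFD library 3 was the lowest in 11.

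Of the 25 female-biased genes listed, 15 were tested, and the other 10 were at or near 0 in these libraries. At an unadjusted p under 0.05 by edgeR's quasi-likelihood test, A1bg was higher, and the fatty acid carrier Cd36 and the monooxygenase Fmo2 were lower, together 20.0% of those tested against 24.7% of all genes. A1bg was under 0.5 CPM in every library, with 0, 0 and 4 counts in the HFD group and 33, 19 and 8 in the HTG group. It passed the filter through the HTG libraries alone, so its place among the 20.0% is not read as a result. Cd36 had 73.4, 42.2 and 56.2 CPM in the HFD group and 47.7, 26.8 and 22.5 CPM in the HTG group, a log2 fold change of -0.83 (SE 0.32, adjusted p = 0.157, same test). Fmo2 had a log2 fold change of -1.18 (SE 0.50, adjusted p = 0.19, same test). None of the 15 had an adjusted p under 0.05 in edgeR, nor did any of the 10 that limma tested on FPKM. The fitted value was above 0 for 3 of the 15 and below 0 for 12. The median log2 fold change was -0.51, and it was -0.29 without HFD library 2 and -0.19 without HFD library 3. DESeq2 gave 1 of the 24 genes with a p-value an adjusted p under 0.05, against 10.5% of all genes given an adjusted p. That gene was Hao2, which was at 0 in every HFD library and at most 0.358 CPM in the HTG group. Hao2 did not pass edgeR's filter, so its call is not read as a result.

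**Figure D4:**
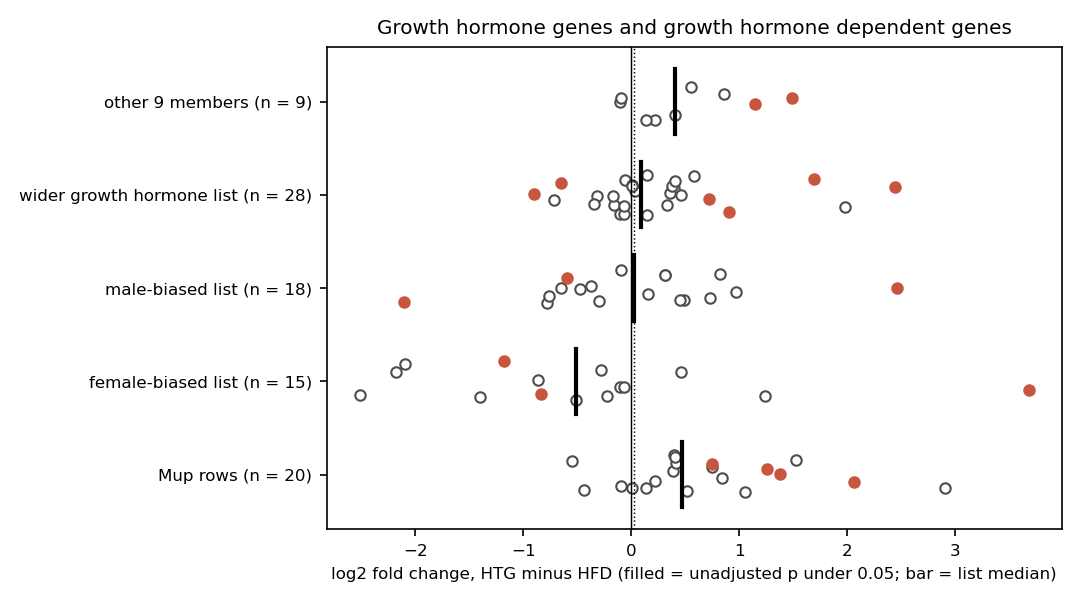
Fitted log2 fold changes (x axis, HTG minus HFD) of the genes tested in each list (a point per gene; filled, unadjusted p under 0.05 in edgeR; vertical bar, median of the list; dotted line, median of all genes). Filled points lie on both sides of 0 in the wider and male-biased lists. In the female-biased list, the only filled point above 0 is A1bg, which was near 0 in the HFD group. The medians run from -0.51 (female-biased) to 0.47 (Mup rows).

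The table's KEGG entry for growth hormone synthesis, secretion and action held 113 of its genes, among them Ghr, Stat5b, Igf1, Igfals and Socs2, and 99 were tested. This entry was read after the data had been examined. At an unadjusted p under 0.05 by edgeR's quasi-likelihood test, 7 genes were higher and 16 were lower, together 23.2% of those tested against 24.7% of all genes (12.3% higher and 12.4% lower). In 8 genes the HTG libraries were separate and higher, and in 21 separate and lower, against 16.5% and 15.5% of all genes. The median log2 fold change was -0.10, and -0.19 without HTG library 1. None had an adjusted p under 0.05 in edgeR. DESeq2 called 13 of the 111 with a p-value from it, and limma on FPKM called 5 of the 74 it tested. Over all genes given an adjusted p by each, the shares were 10.5% and 8.03%. Beside Socs3, the p38 family kinases Mapk12 and Mapk11 had the smallest p of the higher genes, with log2 fold changes of 1.18 and 1.35 and adjusted p-values of 0.0604 and 0.0749. Of the lower genes, the kinase Akt1 and the G protein subunit Gnai3 had log2 fold changes of -0.75 and -0.74, with adjusted p-values of 0.0605 and 0.0612 by edgeR's quasi-likelihood test.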

How the data were processed

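Liver RNA of 3 HFD and 3 HTG samples was analysed, grouped by the sample labels. For each gene and library the authors deposited 2 values. Their estimated count is a whole number with no scaling between libraries, and their FPKM value is scaled by the authors to transcript length and library total. The submitters' processing notes name HISAT2, StringTie, SAMtools and the rat build mRatBN7.2, without versions. Since the rows are mouse Ensembl genes, coordinates are those of the table, with no build named. Low counts came in steps of about 4 (the value 4 occurred 6450 times, 3 occurred 2549 times and 5 occurred 1757 times), so the depth in fragments was between 12662194.5 and 22640869.25 per library, and a gene at 0 may hold up to 3 fragments, or 12 counts, counting error only.

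The estimated counts were tested as deposited with edgeR 4.0.16 (TMM, filterByExpr, glmQLFit and glmQLFTest, group as the only term) in R 4.3.3, and Benjamini-Hochberg adjustment of the p-values covered all 18455 genes that entered the fit. The study's methods name general tests between groups and none for the sequencing in particular. Alternatives were DESeq2 1.42.0, its size factors in edgeR, upper-quartile scaling, fits without the filter or with a minimum of 10 counts in every library, counts divided by 4, limma 3.58.1 on log2(FPKM + 0.1) where the mean FPKM reached 1, the replicate number as a block, fits that left out each library in turn, and a pseudocount of 1 for FPKM. Scripts were tested on simulated counts.

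The members and lists were chosen with earlier results of these data known, and the KEGG entry was read after the files had been examined. The 10 members were all named. Of each list, the 3 genes with the smallest unadjusted p in each direction were named if that p was under 0.05 and the mean at least 50 counts, as were 7 fixed genes of the wider list and 4 of the male-biased list, and the 3 Hsd3b and Mup rows with the highest mean FPKM. Some genes that the rule names are not reported here. Mup8, A1bg, Hao2 and the further Socs and Ptpn genes of the wider list were named after their values were seen. The sequences supplied for reference are of another species and were not used here.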

Additional observations from a re-analysis of the deposited data

How the results depend on the processing

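Of 530 fitted values of named genes under the 14 alternatives, 518 kept their direction and 12 reversed. Those that reversed were Mup20 (0.08 on FPKM, 0.11 with the replicate block, and from -0.50 to 0.24 with a library left out), Ghr (-0.22 to 0.01), Igfals (-0.15 to 0.28), Prlr (-0.43 to 0.08), Cux2 (-0.45 to 1.17), Elovl3 (-1.89 to 0.64) and Hsd3b3 (-0.69 to 0.12), the last 6 with a library left out, and the cause was not tested. The number of members other than Hsd3b5 at an unadjusted p under 0.05, 2 in the reported fit, ran from 2 to 4 with a library left out, and was 4 without HFD library 2. At an adjusted p under 0.05 it was 0 in the reported fit, 2 in DESeq2 and 0 to 2 with a library left out, with 2 without HTG library 1. Beside these counts and those of the lists below, all genes at an unadjusted p under 0.05 numbered 4563 in the reported fit. They numbered 4942 in DESeq2, 3506 of 10930 tested in limma on FPKM, 5105 with no filter and 3867 with the replicate block. With a library left out, they numbered from 3086 (HTG library 2) to 4958 (HTG library 1).

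For the wider list, 0 of 28 genes at an adjusted p under 0.05 became 5 in DESeq2, 1 with at least 10 counts in every library and 1 with counts divided by 4. It became 1 of the 24 that limma tested on FPKM, and 0 to 2 with a library left out. For the male-biased list, 3 genes at an unadjusted p under 0.05 became 6 in DESeq2, 5 in limma on FPKM, 5 with the replicate block and 2 to 5 with a library left out (5 without HFD library 2 or 3 or HTG library 1 or 3). At an adjusted p under 0.05, 0 became 2 in DESeq2, 1 with no filter, 1 with at least 10 counts in every library, 2 in limma on FPKM, 2 with counts divided by 4, and 0 to 1 with a library left out. For the female-biased list, 3 of 15 became 5 of 24 in DESeq2, 7 of 25 with no filter and 6 of 15 with the replicate block. With a library left out it became 2 to 6 (6 without HTG library 1, 5 without HTG library 3). At an adjusted p under 0.05, 0 became 1 in DESeq2 (Hao2, not read as a result) and 0 to 1 with a library left out. For the Mup rows, 4 became 7 with the replicate block and 2 (without HTG library 1) to 6 with a library left out, and 0 at an adjusted p under 0.05 became 2 in DESeq2. For the KEGG entry, an alternative list chosen after seeing the data, 0 of 99 at an adjusted p under 0.05 became 13 of 111 in DESeq2. It became 5 of 94 with at least 10 counts, 5 of 74 in limma on FPKM and 5 of 93 with counts divided by 4. With a library left out it became 0 to 3. The number of all genes at an adjusted p under 0.05 was 2 in the reported fit, 2089 in DESeq2, 878 in limma on FPKM, 822 with counts divided by 4, 684 with at least 10 counts in every library, 162 with no filter, 653 without HTG library 1, 7 without HFD library 2, and 0 with the replicate block and when HFD library 3 or either of HTG libraries 2 and 3 was left out.

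With the replicate block, 2 members other than Hsd3b5 had an unadjusted p under 0.05 and 0 an adjusted one. The deviations of libraries sharing a number correlated at -0.153, -0.121 and 0.212, so the numbers were not taken to pair the samples. A pseudocount of 1 in place of 0.1 lowered the difference in mean log2 FPKM of Hsd3b5 from 3.59 to 3.01 and that of Socs2 from 1.17 to 0.67. The 3 libraries a group limit these results: the 95% interval of the fitted log2 fold change spanned 0 for 7 of the 9 other members, from -0.62 to 2.34 for Socs2 and from -1.16 to 0.98 for Mup20.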

Other observations

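HFD library 2, in which Socs2 stood apart from the other HFD libraries, was also far above them for several other genes of the lists, which were picked out after their values were seen. Cyp4a14, a fatty acid hydroxylase and a known target of PPAR-alpha, had 8.25, 1395 and 11.4 CPM in HFD libraries 1, 2 and 3 and 398, 135 and 3.93 CPM in HTG libraries 1, 2 and 3. Acot3, a peroxisomal acyl-CoA thioesterase, had 4.33, 96.6 and 4.46 CPM in the HFD group and 15.1, 2.96 and 0.299 CPM in the HTG group. The male-biased Cyp4a12a had 36.0, 103 and 24.4 CPM and 49.8, 57.6 and 46.2 CPM. Hnf4a, a liver transcription factor that acts with STAT5B on sex-biased genes, had 450, 1082 and 454 CPM and 499, 319 and 394 CPM. In Cyp4a14 and Acot3, HTG library 1 was the highest of the HTG group and HTG library 3 the lowest, and the groups overlapped for all 4 genes.

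Moxd1, a male-biased gene of the list, was spread unevenly over the HTG libraries, with 1.57, 0.266 and 35.0 CPM, against 14.0, 3.09 and 4.90 CPM in the HFD libraries. Cyp2b10, a female-biased gene, had 1.48, 3.82 and 1.46 CPM in the HFD group and 1.09, 0.46 and 0 CPM in the HTG group, with a log2 fold change of -2.09 and an adjusted p of 0.245 in edgeR's quasi-likelihood test.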
